A study of Rattus norvegicus with 12 samples.

Results

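The genes described here build the early secretory pathway, from the channel of the endoplasmic reticulum to the coats of the vesicles that leave it. They are 44 genes chosen by symbol, and 42 of them were found in each of the 2 deposited gene tables, which hold 18616 and 19355 genes. All 42 averaged 1 normalized count or more in each table and were tested. Sec61g, the small subunit of the channel, and Preb, the exchange factor that loads Sar1 with GTP, matched no symbol there, so that they have no expression values here and appear only in the promoter search. By role, the 42 genes are 8 of the translocon, 5 of the signal peptidase, 5 of the oligosaccharyltransferase that glycosylates proteins, 14 of COPII transport, 8 of COPI and the KDEL receptors, and 2 transcription factors of the CREB3L family.

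The series sequenced RNA of rat BMSCs (bone marrow mesenchymal stem cells, stromal progenitors) in 12 libraries, 3 in each of 4 groups. BMSC-C were untreated control cells. BMSC-CT had 1 week of CTGF, a matrix-associated growth factor, before TGF-β1, and both factors are known from fibrosis. BF-C are labelled fibrotic BMSCs without drug, and the series' design text calls such cells induced fibrotic chondrocytes. BF-D were the same kind of cell given docetaxel, a drug that stabilizes microtubules. All 12 libraries were labelled wild type and came from cells kept in chondrogenic induction medium. The labels used here give neither the dose and time of docetaxel nor how the BF cells were made. Nor do they say whether the 3 libraries of a group were separate cultures, so p-values measure the spread between these libraries, which may be technical.

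Proteins bound for secretion are threaded into the endoplasmic reticulum through the Sec61 channel, where signal peptidase removes the leader peptide and the oligosaccharyltransferase attaches sugar chains. COPII coats then bud vesicles toward the Golgi, and COPI coats and KDEL receptors bring escaped residents back. Cells that secrete collagen, such as cartilage and bone cells and fibroblasts, depend heavily on this route: SEC24D, SEC23A and MIA3 are known for their part in the export of procollagen, and CREB3L1 and CREB3L2 are membrane-bound transcription factors known to act on secretory pathway genes in such cells.

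Depth ran from 15580310 to 19870047 reads per library. In each comparison 1 treated library differed from the rest. In BMSC-CT replicate 3 reads fell on 14621 genes and 15.5% were in ribosomal protein genes, against 16100 to 17265 genes and 4.15% to 6.65% in the other libraries of that table. BF-D replicate 2 had 2.89% of its reads in ribosomal protein genes, against 1.71% to 1.85% in the other BF libraries. Where leaving these libraries out changed the call of a member, the value without them is given beside it. A list of 10 mesenchymal stem cell markers was fully present and took 0.464% to 0.538% of reads in BMSC-C and 0.116% to 0.288% in BMSC-CT. Of 12 macrophage markers, 11 were in the tables, and they took 0.873% to 1.03% of reads in BMSC-C and 0.919% to 1.33% in BMSC-CT. Within that sum markers moved both ways. From BMSC-C to BMSC-CT the mean of Lyz2 went from 0.407% to 0.810% and Cd68 from 0.0274% to 0.0714%. Adgre1 went from 0.314% to 0.0963% and Mrc1 from 0.0472% to 0.0135%. Of 6 osteoclast markers, 4 were in the BMSC table, at 0.0175% to 0.0195% in BMSC-C and 0.0355% to 0.0394% in BMSC-CT. Of 8 chondrocyte markers, 7 were in the BMSC table, without Col2a1. Together they took at most 0.00499% of reads in BMSC-C and 0.0152% in BMSC-CT, where Col9a1 and Matn3 had no reads. For the BF libraries 7 of the 8 were found, without Acan. In BF-C they took 0.0478% to 0.0505% of reads, of which Col11a1, which fibroblasts also express, took 0.0474% to 0.0501%, and Sox9 was at a mean of 0.000327% and Col2a1 at 1.66e-05%. The stem cell markers took 0.676% to 0.680% of reads in BF-C. In these bulk samples fewer cells of a type and less RNA per cell cannot be told apart, and the part of these differences in the results below was not tested.

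Promoter sequences were looked at because many secretory genes are known targets of stress-responsive factors of the endoplasmic reticulum. RefSeq promoter windows (build GRCr8, 250 bases before to 50 after the start) were found for 39 of the 44 genes, not for Sec24c, Kdelr2, Sec24d, Sar1a and Sec61a1. In all, 5 letter patterns were searched on both strands: TGACGTGG, the core known from the unfolded protein response, in 5 genes (Copb1, Sec23a, Kdelr3, Copb2 and Copa) and in 0.595% of 33469 windows of the same length. The endoplasmic reticulum stress element was in 0 genes and 0.0657% of windows, and its second form in 0 genes and 0.0508%. The shorter TGACGT was found in 11 genes and 7.94% of windows, and CCACG in 22 genes and 31.6%. TGACGTGG contains TGACGT and, read on the other strand, CCACG. The stretches below are the 120 bases before the start, 5′ to 3′ along the gene. Kdelr3, Sec23a and Copb2 are shown for the longest pattern that any member held, with TGACGTGG or its reverse complement in capitals. Rpn1 and Ddost are shown as members with small adjusted p in the CTGF and TGF-β1 comparison, with CCACG or its reverse complement in capitals. These 5 were picked after their values were seen.
Kdelr3 (chr7:112959512-112959631, plus strand): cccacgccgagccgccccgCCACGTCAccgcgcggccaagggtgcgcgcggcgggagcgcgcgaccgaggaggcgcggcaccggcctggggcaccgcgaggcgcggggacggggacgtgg
Sec23a (chr6:82440905-82441024, minus strand): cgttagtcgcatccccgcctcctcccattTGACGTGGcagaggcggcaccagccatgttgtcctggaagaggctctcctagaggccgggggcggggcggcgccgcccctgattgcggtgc
Copb2 (chr8:108040567-108040686, plus strand): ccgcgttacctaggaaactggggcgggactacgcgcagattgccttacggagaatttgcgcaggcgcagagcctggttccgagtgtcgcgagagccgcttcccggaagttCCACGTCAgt
Rpn1 (chr4:122100856-122100975, plus strand): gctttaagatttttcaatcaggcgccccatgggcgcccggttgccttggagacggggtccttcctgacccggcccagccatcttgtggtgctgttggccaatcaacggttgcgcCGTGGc
Ddost (chr5:155805492-155805611, plus strand): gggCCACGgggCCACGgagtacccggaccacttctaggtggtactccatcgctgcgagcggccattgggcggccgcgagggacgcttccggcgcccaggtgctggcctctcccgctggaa
The match lay 101 bases before the start in Kdelr3, 91 in Sec23a and 10 in Copb2. Of the 9 members that rose with CTGF and TGF-β1, 8 had a window. TGACGTGG was in 1 of these 8 (Kdelr3) and in 4 of the 31 windows of the other members, and CCACG was in 6 of the 8 and in 16 of the 31. A match is a description of these letters and no measure of binding.

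The comparison of BMSC-CT with BMSC-C asks how CTGF and TGF-β1 changed BMSCs. In BMSC-CT, 8 of the 18 translocon, signal peptidase and oligosaccharyltransferase members rose, and so did 1 KDEL receptor. This made 9 of 42 members higher and 0 lower, with 7.7% of all 16818 genes tested higher and 10.9% lower (limma, Benjamini-Hochberg adjusted p under 0.05). The 9 were the channel subunit Sec61a1, the translocon-associated Ssr4, the signal peptidase genes Sec11a, Sec11c and Spcs2, the oligosaccharyltransferase genes Ddost, Rpn1 and Rpn2, and the receptor Kdelr3. Their fold changes ran from 1.78-fold (Spcs2) to 4-fold (Ssr4). Of the 14 COPII members tested, 0 passed in either direction. Without adjustment, 14 members had p under 0.05 in the direction of higher and 3 of lower. The median log2 fold change of the 42 members was 0.24 against -0.15 for all genes tested, but it was -0.19 against -0.53 under scaling to total reads and -0.02 against 0.08 after quantile normalization.

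**Figure D1:**
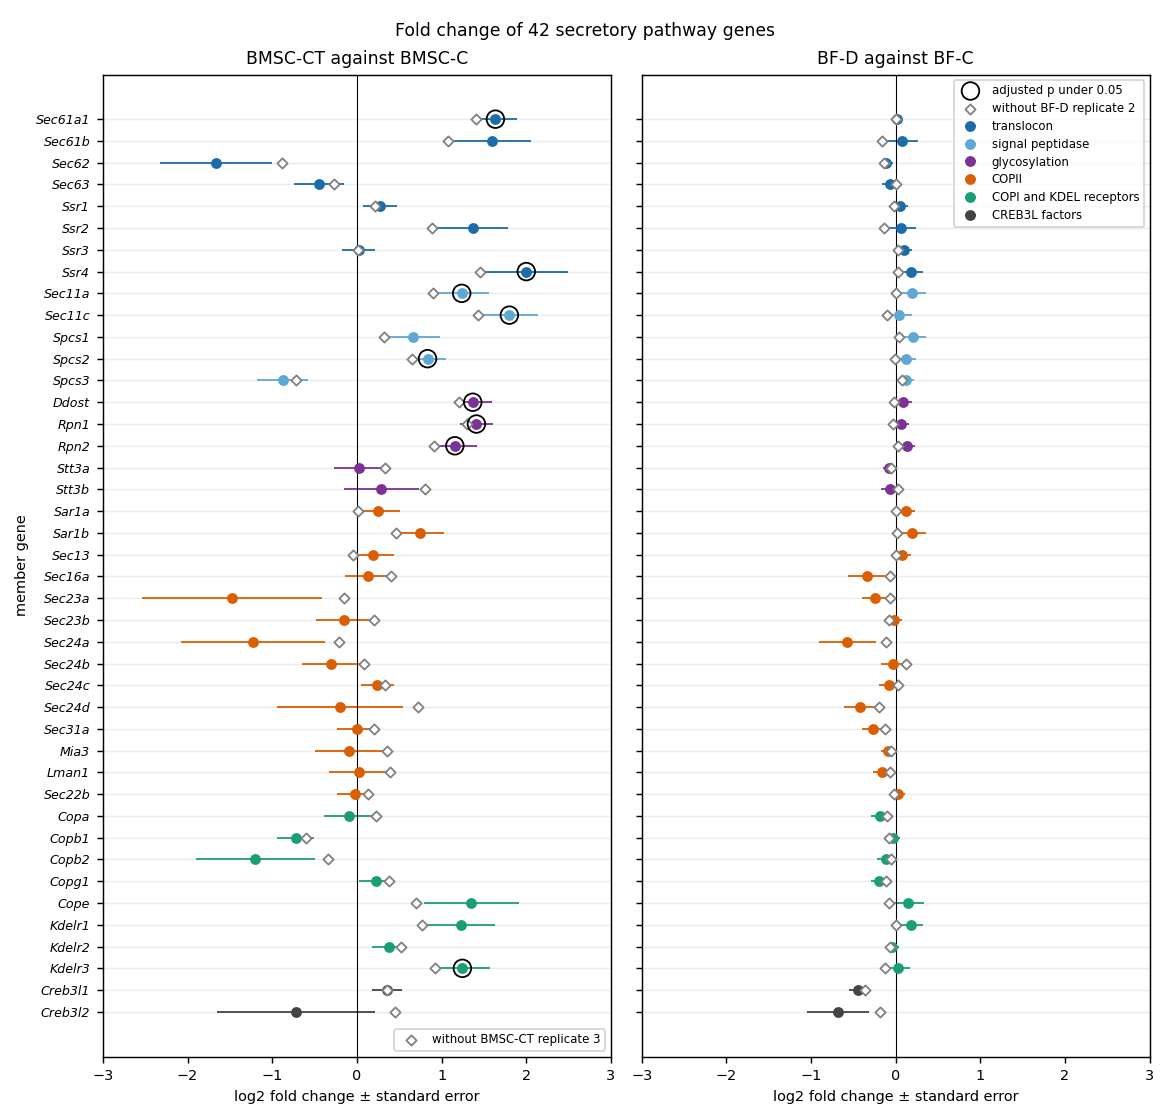
Log2 fold change of each of the 42 members (rows, coloured by role), with its standard error as a bar, for BMSC-CT against BMSC-C (left) and BF-D against BF-C (right). Rings mark the 9 members with an adjusted p under 0.05, all on the left, and open diamonds give the fold change without BMSC-CT replicate 3 or BF-D replicate 2, which moves Sec24d from -0.20 to 0.72.

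How many members and how many of all genes passed depended on single libraries. Without BMSC-CT replicate 3, 20 members rose and 3 fell (19.5% and 23.5% of all genes). Without BMSC-CT replicate 1, 11 rose and 2 fell (1492 and 2155 of all 16838 genes). Without replicate 2, 4 rose (403 of all 16888 genes, with 832 lower). Without BMSC-C replicates 1, 2 and 3 in turn, 1, 0 and 3 rose. Over all genes, calls in either direction then numbered 800, 736 and 1258, against 3134 with every library. The 9 members kept a positive fold change in every one of these fits. edgeR on the recovered reads called 11 higher and 0 lower (1354 and 1600 of all genes, 8.05% and 9.51%), limma-voom 10 and 0 (8.04% and 11.9%), and DESeq2 13 and 1 (16.3% and 16.4%). Array weights, which count less consistent libraries less, gave 26 higher and 5 lower by limma's default estimate, which did not converge (33.7% and 39.8% of all genes). Estimated gene by gene, they gave 22 and 4 (24.7% and 30.1%). In the authors' deposited table, 13 members have an adjusted p under 0.05 with a positive fold change and 1 with a negative one. The share of all genes at that threshold was not counted there, so these counts have no background beside them.

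Of the translocon, 2 of 8 members rose. Sec61a1, the pore-forming subunit of the channel, had normalized counts of 4440.5, 4580.2 and 5276 in BMSC-C and 12018, 13130.0 and 20429 in BMSC-CT. Every treated library lay above every control, and the log2 fold change was 1.64 ± 0.26 (SE; limma adjusted p = 0.0098). Ssr4, a subunit of the translocon-associated protein complex that helps some chains enter, had 1971, 2446 and 3036 in BMSC-C and 5695, 7934 and 20783 in BMSC-CT. The groups did not overlap, but the third treated library was far above the other two, and the log2 fold change was 2.001 ± 0.49 (SE; limma adjusted p = 0.0357) with that library and 1.46 without it.

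The other 6 translocon members did not pass. Sec61b, a small channel subunit, and Ssr2 had log2 fold changes of 1.60 and 1.37 (limma adjusted p = 0.0544 and 0.0648), with all treated libraries above the controls. Without BMSC-CT replicate 3 they were at 1.08 and 0.88, and both passed. Ssr1 and Ssr3, of the same complex as Ssr4, were at 0.27 and 0.02. Sec62 and Sec63, partners of the channel that serve mainly the import of finished chains, had negative values of -1.67 and -0.45 (limma adjusted p = 0.116 and 0.283). For Sec62 the counts were 1708, 1481 and 1083 in BMSC-C and 911, 630.01 and 148 in BMSC-CT, and the groups did not overlap. Without BMSC-CT replicate 3 the log2 fold change of Sec62 was -0.88 and was called lower.

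Of the signal peptidase, 3 of 5 members rose. Sec11c, one of its alternative catalytic subunits, had normalized counts of 376, 446 and 411 in BMSC-C and 1161, 1061 and 2380.1 in BMSC-CT, with a log2 fold change of 1.80 ± 0.34 (SE; limma adjusted p = 0.017). Sec11a, the other catalytic subunit, had 1379, 1592 and 1550.3 in BMSC-C and 2674, 2927 and 5709 in BMSC-CT, with 1.24 ± 0.32 on the log2 scale (SE; limma adjusted p = 0.0414). Spcs2, an accessory subunit, had 2033, 2306 and 2333 in BMSC-C and 3484, 3494 and 5097 in BMSC-CT, with 0.83 ± 0.22 on the log2 scale (SE; limma adjusted p = 0.0453). In all of these the lowest treated library lay above the highest control. The accessory subunits Spcs1 and Spcs3 had log2 fold changes of 0.66 and -0.88, short of the threshold (limma adjusted p = 0.171 and 0.0853), and without BMSC-CT replicate 3 Spcs3 was at -0.72 and was called lower.

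Of the oligosaccharyltransferase, 3 of 5 members rose, and these were its non-catalytic subunits. Rpn1, thought to present substrates to the enzyme, had normalized counts of 5509.5, 5080.2 and 5127 in BMSC-C and 12829.6, 13026 and 16179 in BMSC-CT. Its log2 fold change of 1.41 ± 0.19 (SE; limma adjusted p = 0.00597) passed in 19 of the 20 alternative fits, the most of any member. Ddost, a structural subunit, had 4018, 4213 and 4920.3 in BMSC-C and 9566, 10587 and 14157 in BMSC-CT, a log2 fold change of 1.37 ± 0.23 (SE; limma adjusted p = 0.0111). Rpn2, another structural subunit, had 5855, 5224 and 5948 in BMSC-C and 10384, 10980.3 and 17694 in BMSC-CT, a log2 fold change of 1.16 ± 0.26 (SE; limma adjusted p = 0.029). All these treated values lay above all controls, and BMSC-CT replicate 3 was the highest each time. That rank depended on the scaling. Normalized counts per read were 1.61 in BMSC-CT replicate 3, against 0.904 and 1.06 in replicates 1 and 2. In RPM (reads with each library scaled to 1000000) Rpn1 (583 to 804 in BMSC-CT) and Ddost (510 to 614) were lowest in replicate 3. Rpn2 lay between 637 and 650 RPM in BMSC-CT. Stt3a and Stt3b, the alternative catalytic subunits, had log2 fold changes of 0.02 and 0.29, short of the threshold (limma adjusted p = 0.963 and 0.636). In Stt3b replicates 1 and 2 of BMSC-CT lay above the controls and replicate 3 below them (1522, 1464 and 1362 in BMSC-C and 2779, 2304 and 866 in BMSC-CT), and without replicate 3 the log2 fold change of Stt3b was 0.80 and passed.

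**Figure D2:**
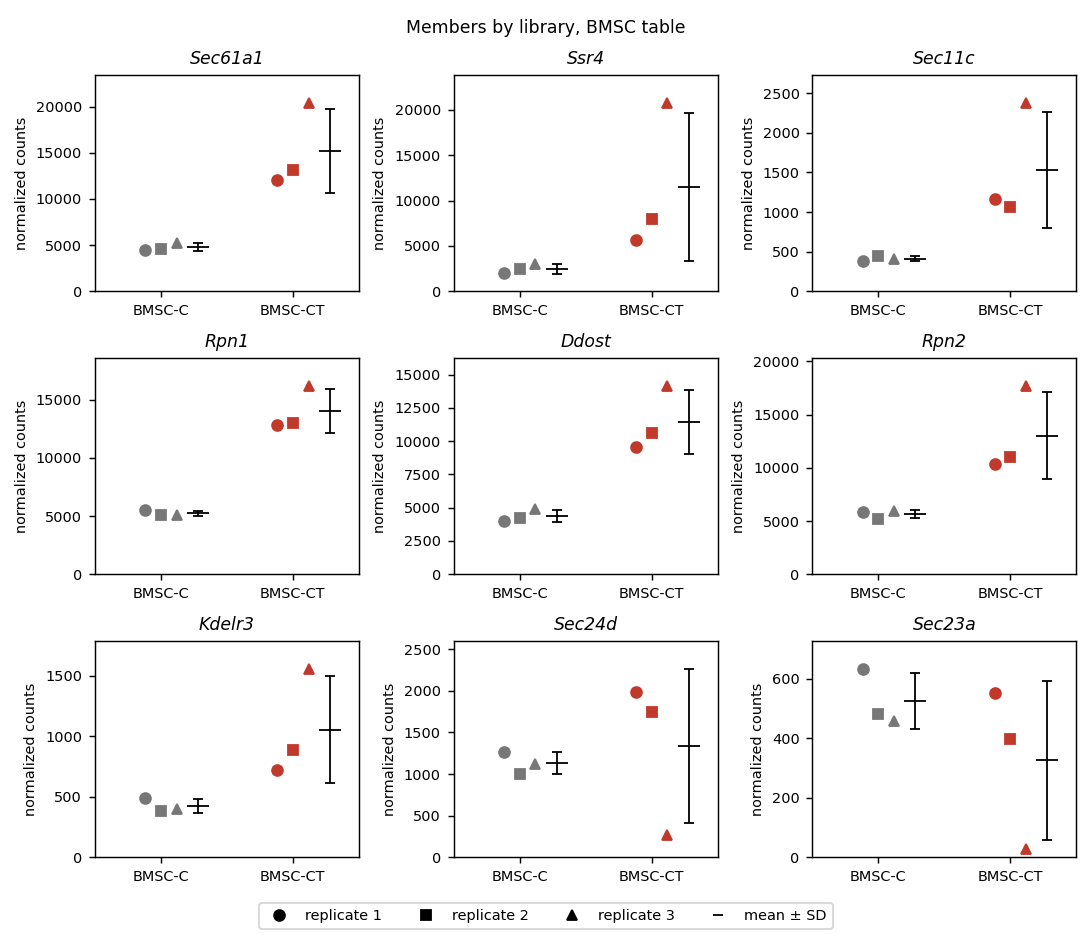
Normalized counts (vertical axes, from 0) of 9 members in each BMSC-C (grey) and BMSC-CT (red) library, with the mean and SD of 3 libraries beside the points. In Sec61a1, Ssr4, Sec11c, Rpn1, Ddost, Rpn2 and Kdelr3 all treated libraries lie above all controls, whereas Sec24d and Sec23a, which did not pass, have replicate 3 of BMSC-CT far below the rest.

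No COPII member passed by limma, edgeR, DESeq2 or limma-voom (0 of 14), and 1 had an unadjusted limma p under 0.05. This was Sar1b, a GTPase that starts coat assembly, with a log2 fold change of 0.74 (limma adjusted p = 0.106), and it was the only COPII member whose groups did not overlap. The median over the 14 was -0.02. Log2 fold changes ran from -1.47 (Sec23a, of the inner coat) to 0.74 (Sar1b), and Sec13 and Sec31a of the outer coat were at 0.19 and -0.00. Several spreads were wide because of 1 library. Sec24d, a cargo adaptor of the inner coat, had normalized counts of 1269, 1003 and 1125 in BMSC-C and 1984, 1749 and 274 in BMSC-CT, so that replicate 3 lay far below the controls and the others above them. Its log2 fold change was -0.20 ± 0.74 (SE; limma adjusted p = 0.856) and turned to 0.72 without that library (limma adjusted p = 0.00596; range over 20 alternatives 0.00148 to 0.944). Sec23a had 633, 483 and 458 in BMSC-C and 551, 397 and 29 in BMSC-CT, and its log2 fold change went from -1.47 to -0.15 without replicate 3. Sec24d and Sec23a were singled out after their values were seen. Sec24a moved likewise from -1.23 to -0.21. Without that library, Sec24d, Sar1b (at 0.46) and Sec16a, the organizer of exit sites (from 0.13 to 0.40), were called higher, and 0 of 14 lower.

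Of COPI and the KDEL receptors, 1 of 8 members rose. Kdelr3, a receptor that returns proteins with a KDEL tail to the endoplasmic reticulum, had normalized counts of 489, 379.9 and 402 in BMSC-C and 724, 888 and 1557 in BMSC-CT. Its log2 fold change was 1.25 ± 0.32 (SE; limma adjusted p = 0.0423), and the groups did not overlap. Kdelr1 and Kdelr2 had log2 fold changes of 1.23 and 0.38 (limma adjusted p = 0.0767 and 0.211), and without BMSC-CT replicate 3 both passed, at 0.77 and 0.52. Among the coat subunits, Cope was at 1.35, Copg1 at 0.23, Copa at -0.09, Copb1 at -0.72 and Copb2 at -1.20, and none passed. Without BMSC-CT replicate 3, Cope was at 0.69 and Copg1 at 0.38, both called higher, and Copb2 was at -0.34 and not called. Copb1 came closest to a fall, with 2151, 1978 and 1789 in BMSC-C and 1493, 1122 and 1013 in BMSC-CT (limma adjusted p = 0.0627), and all its treated libraries lay below the controls. It was called lower by DESeq2, with array weights, after quantile normalization and without BMSC-CT replicate 3 (at -0.60) or replicate 1.

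Neither CREB3L factor passed. Creb3l1 had normalized counts of 1739, 1745 and 2028 in BMSC-C and 2299, 2391 and 2338 in BMSC-CT, and every treated library lay above every control. Its log2 fold change was 0.35 ± 0.17 (SE; limma adjusted p = 0.176). Creb3l2 had 713, 603 and 627 in BMSC-C and 974, 799.9 and 77.3 in BMSC-CT, with replicate 3 far below the rest. Its log2 fold change of -0.72 ± 0.93 (SE; limma adjusted p = 0.577) turned to 0.45 without that library (limma adjusted p = 0.0458; range over 20 alternatives 0.0458 to 0.955).

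Across roles, the treated libraries lay wholly above the controls in 16 members and wholly below in 2 (Sec62 and Copb1), against 23.3% and 28.9% of all genes. The 16 were 4 of 8 translocon, 4 of 5 signal peptidase, 3 of 5 oligosaccharyltransferase, 1 of 14 COPII, 3 of 8 COPI and KDEL receptor, and 1 of 2 CREB3L genes. With a length trend fitted and taken out of every library first, the test gave 16 members called higher and 0 lower, against 13.8% and 8.85% of all genes, with Stt3a, Stt3b, Sec16a, Copg1 and Creb3l1 among them.

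In normalized counts, BMSC-CT replicate 3 deviated from its group by gene length, over all genes tested as well as in the members. Of the 16 members shorter than 2000 bases (as deposited), 12 were higher there than in both other BMSC-CT libraries, against 60.3% of all such genes tested. Of the 26 members of 2000 bases and over, 18 were lower there than in both others, against 58.7% of all such genes. In BF-D replicate 2, 15 of the 16 short members were higher than in both other BF-D libraries (55.5% of all such genes) and 16 of the 26 long ones lower (56.4%). Of the 14 COPII members 10 were that long, and so were 4 of 8 translocon, 2 of 5 signal peptidase and 4 of 5 oligosaccharyltransferase members. Of these last 4, Rpn1 and Rpn2 had higher normalized counts in BMSC-CT replicate 3 than in both other BMSC-CT libraries, and Stt3a and Stt3b had lower ones. For Rpn1 and Rpn2 that rank depended on the scaling. In RPM Rpn1 was lowest in replicate 3 (583, with a BMSC-CT maximum of 804), and Rpn2 lay between 637 and 650 in BMSC-CT. The part of length in the calls was tested only by the fit that removes the trend.

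**Figure D3:**
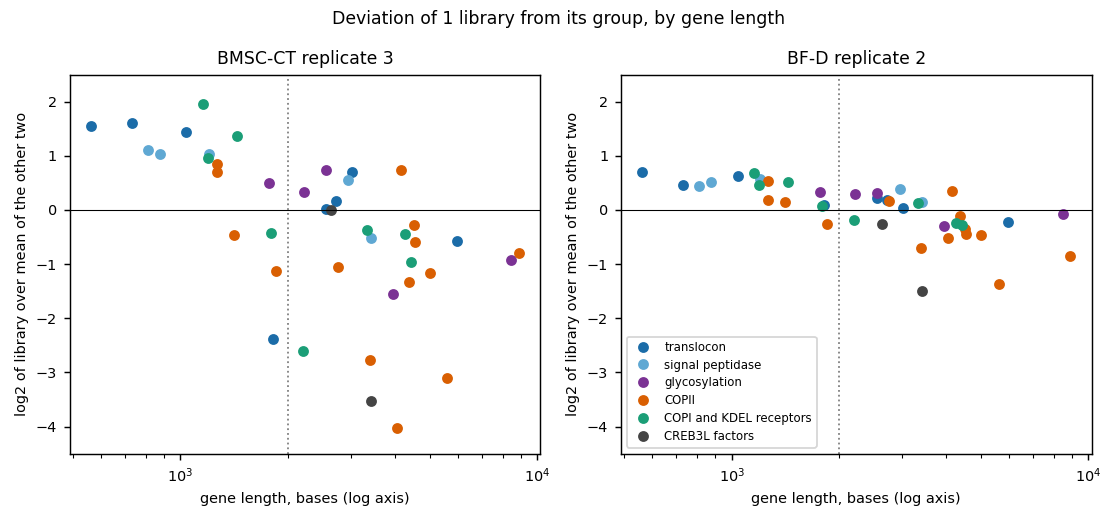
Each member's value in BMSC-CT replicate 3 (left) and BF-D replicate 2 (right) over the mean of the other libraries of its group, as log2 (vertical axes), against deposited gene length in bases (log axis), coloured by role. The dotted line marks 2000 bases. Of the shorter members, 12 of 16 on the left and 15 of 16 on the right were above both other libraries, against 60.3% and 55.5% of all such genes.

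Genes of the same machinery outside the 42 were also counted, beside 7.7% of all genes tested called higher and 10.9% lower. Of 9 other translocon and oligosaccharyltransferase genes, 3 rose and 0 fell, among them Ost4, a small oligosaccharyltransferase subunit (log2 fold change 1.94, limma adjusted p = 0.0278), and Ostc, a subunit of the translocon-bound form (1.57, limma adjusted p = 0.0346). Of 23 other COPII and cargo receptor genes, 4 rose and 1 fell. Tmed3, a p24 cargo receptor, had a log2 fold change of 2.34 (limma adjusted p = 0.00869), and its relative Tmed5 fell by 2.01 on the log2 scale (limma adjusted p = 0.0205). Of 7 genes of the signal recognition particle and its receptor, 0 rose and 1 fell, Srp54a, the subunit that reads the signal peptide (-1.41, limma adjusted p = 0.0197). Of the CREB3 family, 2 other genes were tested and 0 passed.

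The balance between paralogs was compared within each library as the difference of log2(normalized count + 1), over 9 pairs. With 3 against 3 libraries the exact two-sided permutation test cannot go below p = 0.1, so no pair could pass, and the smallest adjusted p over the 9 pairs was 0.225. In BMSC-CT against BMSC-C, Sec11a over Sec11c went from 1.87 ± 0.0398 to 1.31 ± 0.137 (mean ± SD, n = 3; exact permutation p = 0.1), in favour of Sec11c. Sar1a over Sar1b went from 2.09 ± 0.124 to 1.60 ± 0.0693 (exact permutation p = 0.1). Kdelr2 over Kdelr3 went from 1.92 ± 0.0861 to 1.05 ± 0.817, and Kdelr1 over Kdelr2 from 0.79 ± 0.0910 to 1.64 ± 1.05 (exact permutation p = 0.1 each). In these 4 pairs the groups did not overlap.

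The comparison of BF-D with BF-C asks what docetaxel changed in the fibrotic cells. None of the 42 members passed by limma, edgeR, DESeq2 or limma-voom (0 higher, 0 lower; limma and edgeR each called 0.00586% of 17076 genes higher and 0.00586% lower, DESeq2 0.217% and 0.205%, limma-voom none). Without adjustment, 0 members had a limma p under 0.05 in the direction of higher and 2 of lower, Creb3l1 and Sec24d. The median log2 fold change of the members was -0.0039 against -0.0044 for all genes tested. The BF-D libraries lay wholly below the BF-C libraries in 9 members, against 9.04% of all genes, and wholly above in 0, against 7.78%. The 7 fibrous matrix genes measured beside them took 10.3% to 10.7% of reads in BF-C and 7.25% to 9.83% in BF-D, and their part in these values was not tested. The 9 members were Sec62, the COPII genes Sec24d, Sec31a, Mia3 and Lman1, the COPI genes Copa and Copg1, and both CREB3L factors.

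Creb3l1 had the smallest p of the members. Its normalized counts were 2176, 2274 and 2322 in BF-C and 1843, 1470.03 and 1681 in BF-D, with every treated library below every control. The log2 fold change was -0.44 ± 0.10 (SE; limma adjusted p = 0.517). Without BF-D replicate 2 it was -0.36 and passed (limma adjusted p = 0.00487; range over 20 alternatives 0.00487 to 0.918), in a fit that called 0.729% of all genes higher and 0.811% lower. It also passed with array weights by the default and the gene-by-gene estimate (-0.34 and -0.38 on the log2 scale), which called 0.31% and 0.416% of all genes lower. Creb3l2 had 968, 914 and 956 in BF-C and 832, 295 and 828 in BF-D, again wholly below, with replicate 2 far under the others. Its log2 fold change was -0.68 ± 0.37 (SE; limma adjusted p = 0.706) and -0.19 without that library.

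Among COPII genes, Sec24d had normalized counts of 3731, 3449 and 3527 in BF-C and 3189.8, 1919 and 3052 in BF-D and a log2 fold change of -0.43 ± 0.18 (SE; limma adjusted p = 0.706), which was -0.19 without BF-D replicate 2. Sec31a, the outer cage subunit, had 5335, 5217 and 5224 in BF-C and 4744, 3559 and 4896 in BF-D, a log2 fold change of -0.27. In both, the treated libraries lay below the controls and replicate 2 lowest. Mia3, which recruits procollagen, and Lman1, a lectin receptor for glycoprotein cargo, were at -0.09 and -0.16. Sec24a was at -0.57, and its libraries overlapped (785, 718 and 726 in BF-C and 649, 265 and 722 in BF-D). Without BF-D replicate 2 it was at -0.12 and Sec31a at -0.13. The remaining COPII members lay between -0.34 (Sec16a, -0.06 without that library) and 0.19 (Sar1b).

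On the entry side, fold changes lay near 0. The 18 genes of the translocon, signal peptidase and oligosaccharyltransferase had log2 fold changes between -0.11 (Sec62) and 0.21 (Spcs1), and without BF-D replicate 2 between -0.16 (Sec61b) and 0.08 (Spcs3). Sec61a1 and Rpn1 were at 0.02 ± 0.07 and 0.06 ± 0.10 (SE). Rpn2 had 8866, 8745 and 8988 in BF-C and 9134, 11204 and 8879 in BF-D, so that replicate 2 alone was high. COPI genes Copa and Copg1 were at -0.19 and -0.19, with groups that did not overlap, and the KDEL receptors lay between -0.05 (Kdelr2) and 0.18 (Kdelr1). Of the other genes of the pathway, 0 passed. The paralog differences again could not pass, with a smallest adjusted p of 0.225 over 9 pairs by exact permutation.

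**Figure D4:**
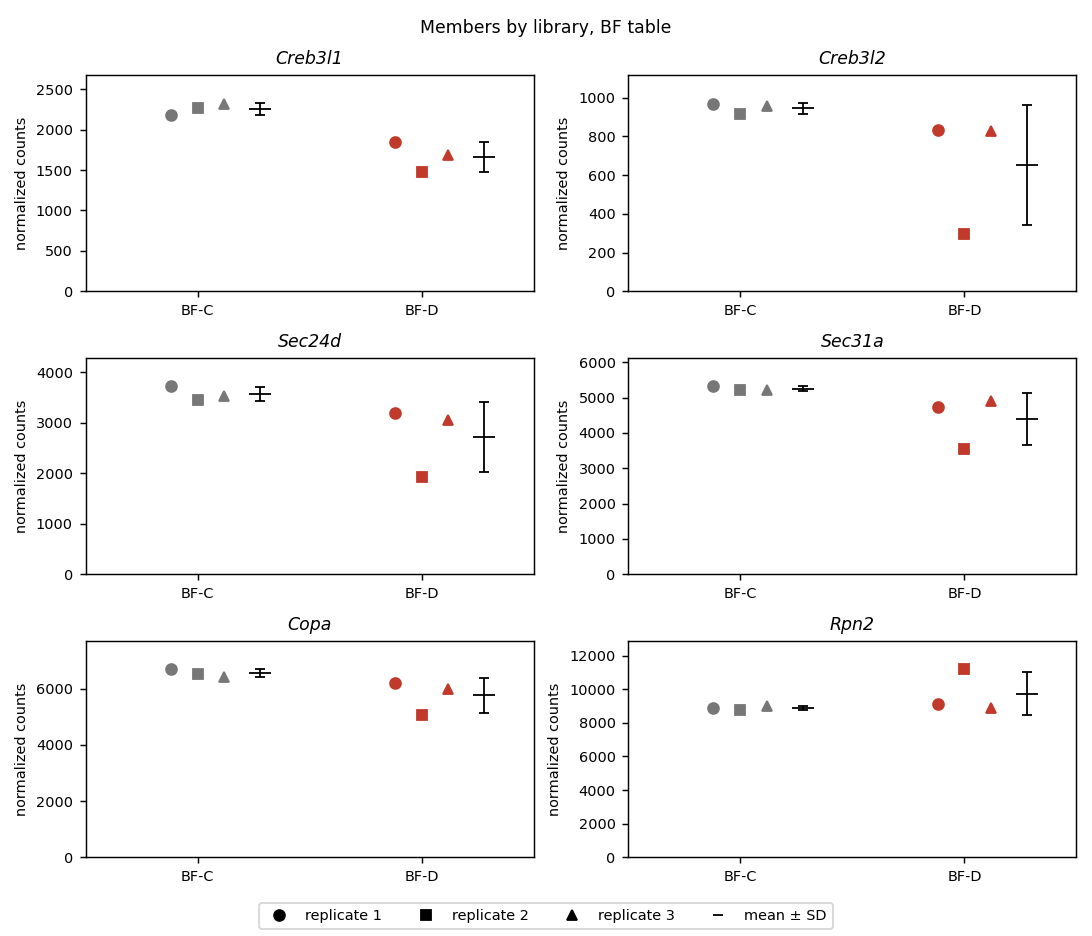
Normalized counts (vertical axes, from 0) of 6 members in each BF-C (grey) and BF-D (red) library, with the mean and SD of 3 libraries. Creb3l1, Creb3l2, Sec24d, Sec31a and Copa lie below the controls in every BF-D library, and BF-D replicate 2 is the lowest of them and the highest for Rpn2.

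Levels in the 4 groups were set side by side as RPM, the reads of a gene with each library scaled to 1000000, over the 17571 genes in both tables. The tables were normalized separately, so these levels are a description without a test. The 14 COPII genes summed to 1401 ± 54.4 RPM in the BMSC-C libraries and 1222 ± 405.5 with CTGF and TGF-β1 (mean ± SD, n = 3 each). The sum was 2103 ± 36.9 for BF-C and 1992 ± 116.02 for BF-D. The BMSC-CT libraries held 1552, 1344 and 769 of them, with replicate 3 the lowest. In 10 of 14 COPII genes every BF-C library lay above every BMSC-C library and in 1 (Sar1b) below. The whole set had 23 of 42 above and 3 below, against 30.2% and 36.3% of the 13102 genes that averaged 1 RPM or more. The median ratio of BF-C to BMSC-C was 1.55 over COPII genes, 1.19 over the 42 members and 0.946 over all these genes.

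The COPII genes furthest above were Sec24d, with 69.7 to 87.3 RPM in BMSC-C and 205.1 to 221.7 in BF-C, and Sec23a, with 30.1 to 43.6 and 81.9 to 85.5. Mia3 had 65.5 to 99.4 and 150.1 to 153.9. Sec23b, Sec24b and Sec24c overlapped between these groups, at BF-C to BMSC-C ratios of 0.929, 0.964 and 1.02. Their paralogs Sec23a, Sec24a and Sec24d were at 2.33, 1.48 and 2.76. The 5 signal peptidase genes together went the other way, with 492.7 ± 35.4 RPM in BMSC-C and 401.2 ± 9.16 in BF-C, and Spcs1 and Spcs2 were below in every library. The translocon summed to 1171 ± 24.6 in BMSC-C and 1388 ± 25.9 in BF-C, against 1977 ± 186.7 in BMSC-CT. The oligosaccharyltransferase summed to 1399 ± 36.5, 1630.2 ± 16.1 and 2267 ± 366.6 in the same order. COPI and the KDEL receptors summed to 1203 ± 31.1, 1508 ± 22.8 and 1342 ± 61.2.

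Against BMSC-CT, 18 of 42 members were above in every BF-C library (45.8% of all genes) and 13 below (26.3%). The 18 included 10 of 14 COPII genes, and the 13 included 3 translocon, 4 signal peptidase and 3 oligosaccharyltransferase genes. In RPM per kilobase, which allows genes to be compared, Ssr4 had the highest mean of the members in each group, at 230.01 ± 43.8 in BMSC-C and 713 ± 277 in BMSC-CT, and at 221 ± 9.65 without and 257 ± 49.3 with docetaxel (SD, n = 3). Ddost (168 ± 13.5), Rpn1 (161 ± 9.52) and Rpn2 (151 ± 8.01) followed it in BMSC-C, each overlapping the next in range. Sec24a was the lowest member in BMSC-C (5.33 ± 1.69) and BF-C (7.90 ± 0.370), with Sec23a next in BMSC-C (8.85 ± 1.72).

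**Figure D5:**
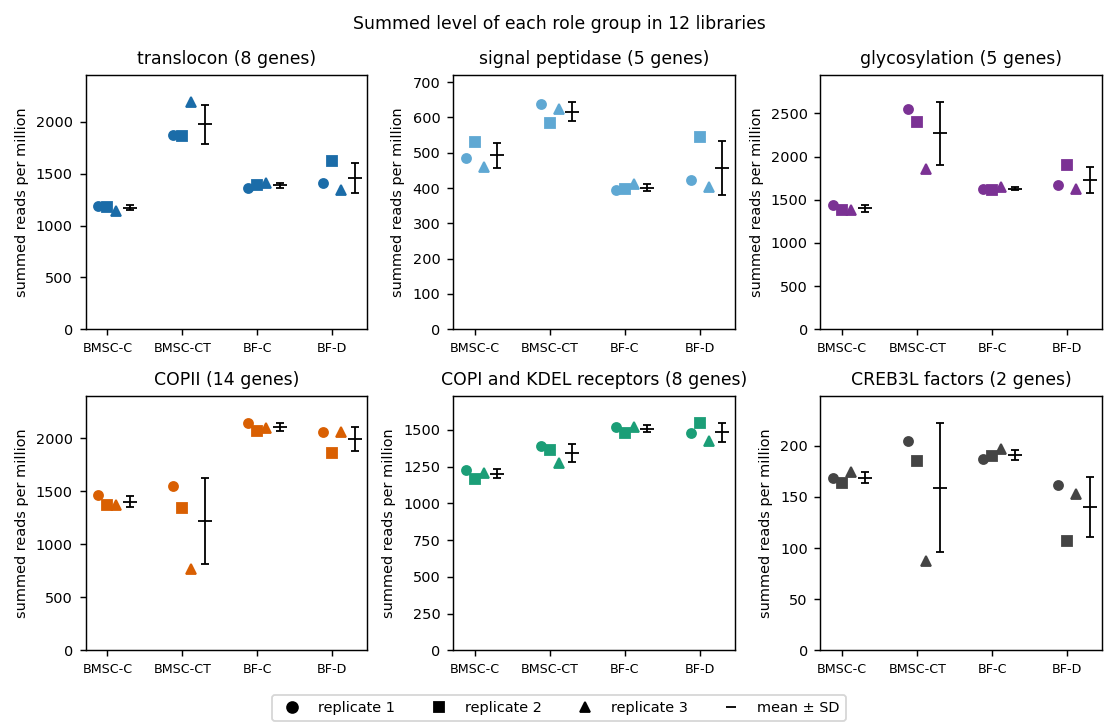
Summed RPM (vertical axes, from 0) of each role group in all 12 libraries, with the mean and SD of 3 libraries per group. COPII sums in BF-C and BF-D lie above all BMSC libraries, the mean translocon and glycosylation sums are highest in BMSC-CT, and BMSC-CT replicate 3 is lowest for COPII and CREB3L.

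These groups also differed in other cell types' genes. The 11 macrophage markers took 0.873% to 1.03% of reads in BMSC-C but 0.00427% to 0.00444% in BF-C, where Mrc1 had no reads, and 0.00596% to 0.00662% in BF-D. The 7 fibrous matrix genes took 1.24% to 1.47% of reads in BMSC-C and 1.18% to 2.85% in BMSC-CT, far below the shares given above for the BF groups. The part of these differences in the levels of the secretory genes was not tested.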

How the data were processed

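RNA of 12 rat libraries was taken with RNeasy and sequenced from NEBNext Ultra libraries, per the labels' protocols. The submitters' processing notes name Bowtie 0.12.2 and the mouse build mm8, although gene IDs are those of rat Ensembl. The rat build, the gene counting and its use of strand are not given in the sources used here. The authors deposited 1 table per comparison, with gene lengths, log2 fold changes and p-values. The deposited signal values are normalized counts: the reads of each library over its own size factor. Divided by the smallest value of the library, 100% came out whole to within 0.01, and these recovered reads served the count tests. Values of the authors' own test are named as from the authors' deposited table.

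The main test was limma 3.58.1 (trend, R 4.3.3) on the log2 of each normalized count plus 1, for genes averaging 1 or more, fitted to each table alone with all genes and Benjamini-Hochberg adjustment. Genes with an adjusted p under 0.05 are called; these are the ones written as rose or fell. Fold changes on this scale understate the change of low genes. edgeR 4.0.16 (quasi-likelihood) and DESeq2 1.42.0 ran on the recovered reads as alternatives, with limma-voom, other scalings, filters, pseudocounts, a replicate block, array weights, removal of a length trend and each library left out. The fit was also run on simulated counts that held no deviating library and no length trend, so that run does not bear on either. Levels across tables are RPM over the genes in both. Libraries of a group differed by more than counting noise, and each was counted as 1 replicate. That spread does not show that they were separate cultures.

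The members and lists were chosen with earlier results of these data known. Library values are given for called members with the smallest adjusted p in each role and for both CREB3L factors, and for others where marked as chosen after their values were seen; values of further uncalled members in the text and plots were also chosen that way. Sec61g and Preb have no expression values here. Results on other genes of the pathway are reported in part. All columns of values had a sample.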

Additional observations from a re-analysis of the deposited data

How the results depend on the processing

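In BMSC-CT against BMSC-C, 9 members were called higher and 0 lower. The 9 kept a positive fold change in all 20 alternatives. The count higher was 8 to 11 under TMM, total-read and quantile scaling, other filters and pseudocounts, edgeR, limma-voom and the replicate block. Over all genes these fits called 787 to 1929 higher. Spcs2 and Kdelr3 did not pass under total-read scaling or the replicate block, nor Spcs2 after quantile normalization, and Sec61b passed in each of these fits. DESeq2 gave 13 higher (2749 of all genes). The count lower was 1 with DESeq2 and 1 after quantile normalization (2755 and 1794 of all genes). Removing the length trend gave 16 higher (2320 of all genes). With limma's default array weights, whose estimate stopped before convergence with a warning, 26 were higher and 5 lower (5667 and 6690 of all genes). With weights estimated gene by gene, an alternative added after that warning was seen, 22 were higher and 4 lower (4155 and 5062 of all genes). Leaving out each library in turn gave 0 to 20 higher and 0 to 3 lower, with 736 to 7204 of all genes called in either direction. Fits with 1 library left out have a group of 2, whose spread is pooled with the other group.

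The scaling of libraries moved the median log2 fold change of all genes from -0.15 to -0.53 with total reads and to 0.08 after quantile normalization, and it was 0.17 with the length trend removed. The members' medians were 0.24, -0.19, -0.02 and 0.73 in the same order. Over all genes, 1295 calls were higher and 1839 lower, against 787 and 1967 with total reads, 1929 and 1794 after quantile normalization and 2320 and 1489 without the length trend.

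In BF-D against BF-C, 0 members were called, and 1 was called lower (Creb3l1) with each form of array weights and without BF-D replicate 2. Left-out libraries gave 0 to 1 lower. The other alternatives called 0.

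Deviations of same-numbered replicates had correlations of 0.20, -0.02 and 0.18 in the BMSC table and 0.01, 0.02 and -0.0029 in the BF table. In the BMSC table the values for replicates 1 and 3 were the highest of all pairs. The crossed pairs were the lowest, at -0.23 (BMSC-CT replicate 1 with BMSC-C replicate 3) and -0.18 (BMSC-CT replicate 3 with BMSC-C replicate 1). The main test did not pair libraries by number. With the replicate block, 8 members were called higher and 0 lower in BMSC-CT against BMSC-C (1315 and 1688 of all 16818 genes). There Sec61b passed and Spcs2 and Kdelr3 did not. In BF-D against BF-C the block called 0 members and 0 of all genes. The 6 ratios of summed levels of BF-C over BMSC-C kept their direction under TMM scaling and moved by less than their spread.

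Of 840 member values under alternatives in the BMSC comparison and 840 in the BF comparison, 82 and 56 had the opposite sign to the value reported, as did 2 and 7 of 63 paralog differences each. In 75 and 56 of the member values neither value passed, so these directions are not fixed by the data. The others passed under the alternative only: Sec24d with both kinds of weights and without BMSC-CT replicate 3, Creb3l2 without that library, and Sec23b, Sec31a and Copa with the default weights. Values below are log2 fold changes, or differences of log2 values for paralog pairs. The cause was not tested. With TMM scaling the reversed values in BMSC-CT were Ssr3 -0.0095, Stt3a -0.0088 and Lman1 -0.0070. With scaling to total reads the reversed values in BMSC-CT were Ssr1 -0.15, Ssr3 -0.40, Stt3a -0.40, Stt3b -0.13, Sar1a -0.17, Sec13 -0.23, Sec16a -0.29, Sec24c -0.18, Lman1 -0.40, Copg1 -0.19, Kdelr2 -0.042 and Creb3l1 -0.067. After quantile normalization the reversed values in BMSC-CT were Ssr3 -0.25, Stt3a -0.29, Sar1a -0.12, Sec13 -0.018, Sec16a -0.11, Sec24c -0.026 and Copg1 -0.098. In BF-D they were Sec61a1 -0.024. With edgeR the reversed values in BMSC-CT were Ssr3 -0.0080, Sec24d 0.24 and Mia3 0.0081. With DESeq2 the reversed values in BMSC-CT were Sec24d 0.24, Sec31a 0.020 and Mia3 0.020. With limma-voom the reversed values in BMSC-CT were Ssr3 -0.0084 and Stt3a -0.014. With limma's default array weights the reversed values in BMSC-CT were Ssr3 -0.21, Sar1a -0.055, Sec13 -0.16, Sec23b 0.24, Sec24b 0.11, Sec24d 0.69, Sec31a 0.28, Mia3 0.26, Sec22b 0.059, Copa 0.26 and Creb3l2 0.34. In BF-D they were Sec61b -0.11, Sec63 0.0071, Ssr2 -0.094, Sec11c -0.076, Spcs2 -0.0063, Rpn1 -0.012, Stt3b 0.027, Sec24b 0.083, Sec24c 0.016, Sec22b -0.018, Cope -0.065 and Kdelr3 -0.092. With gene-by-gene array weights the reversed values in BMSC-CT were Ssr3 -0.13, Sar1a -0.013, Sec13 -0.10, Sec23b 0.23, Sec24b 0.097, Sec24d 0.69, Sec31a 0.26, Mia3 0.29, Sec22b 0.077, Copa 0.24 and Creb3l2 0.35. In BF-D they were Sec61b -0.14, Ssr1 -0.022, Ssr2 -0.13, Sec11c -0.094, Ddost -0.0072, Rpn1 -0.032, Stt3b 0.014, Sec24b 0.11, Sec24c 0.021, Sec22b -0.021, Cope -0.049 and Kdelr3 -0.11. With the length trend removed the reversed values in BMSC-CT were Sec63 0.36, Sec23b 0.31, Sec24b 0.43, Sec24d 0.37, Sec31a 0.69, Mia3 0.59, Sec22b 0.011 and Copa 0.59. In BF-D they were Sec63 0.10, Sec11c -0.029, Stt3a 0.17, Stt3b 0.029, Sec23b 0.020, Sec24b 0.10, Sec24c 0.038, Mia3 0.023, Sec22b -0.032, Copb1 0.037 and Kdelr3 -0.037.

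Members whose sign changed when a library was left out are given by the range over the 6 left-out fits. For BMSC-CT the ranges were Sec31a -0.12 to 0.20, Mia3 -0.37 to 0.36, Ssr3 -0.079 to 0.11, Stt3a -0.17 to 0.33, Lman1 -0.26 to 0.39, Stt3b -0.035 to 0.80, Sec16a -0.011 to 0.40, Sec13 -0.049 to 0.35, Sec23b -0.33 to 0.20, Sec24b -0.50 to 0.089, Sec24d -0.70 to 0.72 and Sec22b -0.13 to 0.13. Further ranges were Copa -0.25 to 0.23, Creb3l2 -1.37 to 0.45, Sec24c/Sec24d -0.39 to 0.92 and Creb3l1/Creb3l2 -0.094 to 1.74. For BF-D the ranges were Sec11c -0.11 to 0.13, Sec22b -0.027 to 0.054, Sec13 -0.015 to 0.11, Sec23b -0.078 to 0.014, Sec61b -0.16 to 0.22, Sec63 -0.13 to 0.0010, Ssr1 -0.016 to 0.12, Ssr2 -0.14 to 0.21, Spcs2 -0.013 to 0.19, Ddost -0.016 to 0.15, Rpn1 -0.037 to 0.13 and Stt3b -0.13 to 0.029. Further ranges were Sec24b -0.13 to 0.12, Sec24c -0.15 to 0.032, Cope -0.080 to 0.28, Kdelr3 -0.12 to 0.12, Copb1 -0.077 to 0.0076, Stt3a/Stt3b -0.086 to 0.029, Sec23a/Sec23b -0.36 to 0.0047, Kdelr2/Kdelr3 -0.14 to 0.052 and Creb3l1/Creb3l2 -0.17 to 0.48.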
